A study of Mus musculus with 9 samples.

Results

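Mouse embryonic stem (ES) cells that differentiated for 1.5 days (D1.5) without doxycycline (Dox-) were compared with cells that differentiated for the same time with doxycycline at 1 µg/ml (Dox+). Each side is 1 array, so the comparison rests on 2 of the 9 arrays of the series and carries no test. Doxycycline is an antibiotic used to switch engineered genes on or off. Here it controlled a version of protein kinase A (PKA) that is constitutively active, and the comparison asks how activity of this kinase bears on the first steps of differentiation. The labels do not state in which medium the kinase was on, so each arm goes by its medium. Before differentiation all cells were kept with leukemia inhibitory factor, which holds mouse ES cells in self-renewal, and with doxycycline at 1 µg/ml, so the Dox- cells had met the drug too. Differentiation took place in medium with fetal bovine serum and without the factor. The ES cell line, the clones behind the arrays and the promoter that drives the kinase are not given in the text used here. The other 7 arrays hold the Dox- and Dox+ pairs of D0.5, D2.5 and D3.5 and undifferentiated ES cells, and the D0.5 pair is used as a measure of noise. That pair also differs in medium, with 1 array a side. It therefore does not measure the spread between replicate cultures of D1.5.

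Cyclic AMP activates PKA, which phosphorylates the transcription factor CREB and so switches on genes whose promoters carry a cyclic AMP response element. Mouse ES cells that lose leukemia inhibitory factor first shut down the genes of naive pluripotency, pass through a formative and primed epiblast state, and then form mesoderm and other layers. The ETS factor Etv2 acts in mesoderm at the branch that gives blood and blood vessels, and is known there as a master regulator that switches on Fli1, Tal1 and the receptor gene Kdr.

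The values are array signals, on a linear scale that the authors set to a mean of 100 for each array. A gene is represented by its brightest probe set over all 9 arrays, and differences are Dox- minus Dox+ as log2(signal + 16), a scale that shrinks the differences of dim genes. Of 18193 genes with a probe set, 8716 passed a filter, which asked for a signal of 50 or more on 2 or more arrays. The 2 arrays of D1.5 were alike in their overall properties. A signal of at least 50 was reached by 42.9% of genes on the Dox- array and 42.7% on the Dox+ array, and the Actb probe sets at the 3' and 5' ends, whose ratio tells of RNA integrity, gave 1.98 in Dox- and 1.90 in Dox+ cells. Pou5f1 (Oct4) read 2095 in Dox- and 2223 in Dox+ cells on D1.5, so both arms held cells with a bright pluripotency marker. Nanog read 685 in Dox- and 828 in Dox+ cells.

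On D1.5, 116 of the 8716 genes (1.33%) were higher in Dox- by 2-fold or more and 124 (1.42%) lower, together 240 (2.75%). A day earlier, 10 genes (0.115%) were at least 2-fold apart, among them the cohesin subunit gene Rad21 at 1942.5 in Dox- and 844 in Dox+ cells. The SD of the differences over all genes was 0.40 on D1.5 and 0.20 on D0.5, around medians of 0.01 and -0.04. In 5 bins of mean signal, the 99th percentile of the size of the D0.5 differences was 0.68 among the dimmest genes and 0.50 among the brightest. On D1.5, 386 genes lay above this level of their bin and 441 below it, against 90 in all on D0.5. The 90 follows from the percentile itself. All 240 genes at least 2-fold apart on D1.5 had to be past the level, since the highest, 0.68, is less than a 2-fold difference. At least 4-fold apart were 20 genes higher and 10 lower in Dox-. Just inside the 2-fold threshold lay Cables1 (1.00) and Rnf213 (-1.0016), and just outside it Gata6 (0.9972) and Dact1 (-0.9991).

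**Figure D1:**
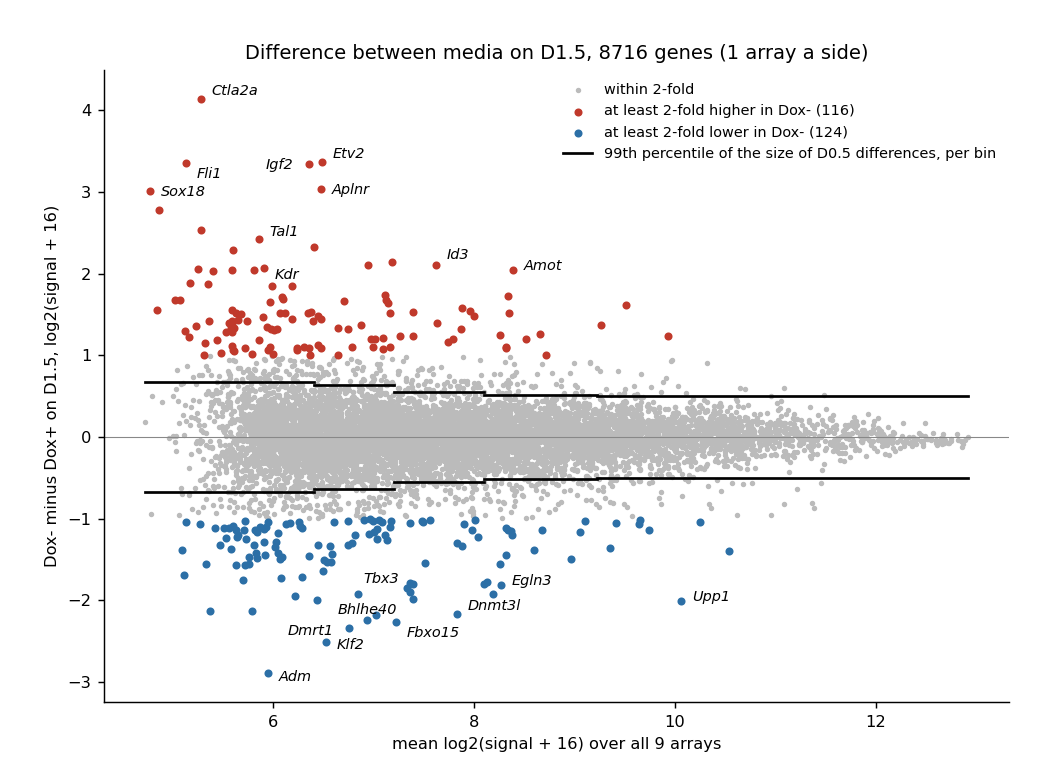
Dox- minus Dox+ difference on D1.5 (log2 scale) against mean log2(signal + 16) over all 9 arrays for 8716 genes, of which 116 were higher in Dox- by 2-fold or more (red), 124 lower by as much (blue). Black steps show the 99th percentile of the size of the D0.5 differences in each of 5 bins. Every step is smaller than a 2-fold difference, so all coloured points have to lie outside the steps. The upward genes reach further from 0 than the downward ones.

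The 2 sides differed in how bright their genes read. Of the 116 genes higher in Dox-, 106 had a signal of at least 50 on the D1.5 Dox- array and 78 were under 50 on the D1.5 Dox+ array, and 80 were under 50 in undifferentiated cells. Of the 124 genes lower in Dox-, 66 were under 50 on the D1.5 Dox- array and 113 were at 50 or more on the Dox+ array, and only 21 were under 50 in undifferentiated cells. Most upward genes thus read under 50 in ES cells, and most downward genes at 50 or more. Over all 18193 genes with a probe set, 41.6% reached 50 in undifferentiated cells. The filter favours bright genes, and the share among the 8716 that passed was not counted. The downward counts may therefore be those of tested genes in general. The filter bears on the upward set as well: 32 of the 116 were under 50 on every Dox+ array, and 29 of these also in undifferentiated cells. These 29 passed through Dox- arrays alone, and such genes had to differ on some day.

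Regulators of blood and vessel precursors were among the genes furthest up in Dox-. Etv2 had signals of 32.1, 408, 183 and 290.0 in Dox- from D0.5 to D3.5, 24, 25.1, 36.2 and 55.2 in Dox+ over the same days, and 33.7 in undifferentiated cells. It was dim in both arms on D0.5 and highest on the Dox- array of D1.5, where the difference was 3.37. No Dox+ array, up to D3.5, came within 2-fold of that level. The RefSeq promoter of Etv2, from 250 bases before to 50 bases after the annotated start on the minus strand of GRCm38.p6 (chr7:30635803-30636102), is shown because Etv2 had the second largest difference of all genes tested. The capitals mark CGTCA, which is the shortened cyclic AMP response element TGACG read on the other strand, and which begins 5 bases after the start. Of all tested genes with such a window, 38.1% hold this shortened element, so its presence in Etv2 is not unusual.
Etv2: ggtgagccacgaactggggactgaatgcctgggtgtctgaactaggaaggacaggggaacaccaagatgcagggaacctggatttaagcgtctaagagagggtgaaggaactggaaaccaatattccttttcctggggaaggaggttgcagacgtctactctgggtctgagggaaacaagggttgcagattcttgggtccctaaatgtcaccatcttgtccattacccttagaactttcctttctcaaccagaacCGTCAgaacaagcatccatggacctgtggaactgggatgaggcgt

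Fli1, the ETS factor of blood and endothelium that Etv2 is known to switch on, read 0.6, 148, 107.5 and 108 in Dox- from D0.5 to D3.5 and 0.2, 0.1, 3.3 and 5.9 in Dox+ over the same days, with 1.6 in undifferentiated cells. It was near 0 in every culture but the Dox- ones from D1.5 on, with a difference of 3.35 on D1.5. Its second probe set, which did not pass the filter, gave 45.6 in Dox- and 0.6 in Dox+ cells. Tal1 (Scl), a helix-loop-helix factor without which no blood forms, read 27.6, 205, 100.5 and 44.2 in Dox- and 19.6, 25.2, 15.2 and 10.5 in Dox+ over the 4 days, with 73.9 in undifferentiated cells. Its Dox- signal was thus highest on D1.5, where it differed by 2.42, and lower again on the later days. Its partners in a DNA-binding complex followed the same side: Gata2, a zinc finger factor of blood precursors, read 108 in Dox- and 14.2 in Dox+ cells, and Lmo2, the protein that bridges the complex, 102 in Dox- and 25.4 in Dox+ cells.

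The Sox factors of the early endothelium were on the same side. Sox18 read 117.5 in Dox- and 0.5 in Dox+ cells on D1.5 and differed by 3.02, and Sox7 read 54.5 in Dox- and 6.0 in Dox+ cells. Sox17, which also marks definitive and extraembryonic endoderm, read 100.2 in Dox- and 12.3 in Dox+ cells, and Hhex, a homeobox factor shared by blood precursors and endoderm, 138 in Dox- and 31 in Dox+ cells. Sox7 and Sox17 each have a second, dim probe set, where the differences were only 0.34 and 0.33. The brighter probe sets of all 4 genes read under 50 on every Dox+ array.

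Among receptors, Kdr, through which vascular endothelial growth factor mainly acts, read 17.4, 87.4, 274 and 483 in Dox- from D0.5 to D3.5 and 22.5, 8.7, 2.0 and 21.1 in Dox+ over the same days, with 16.4 in undifferentiated cells. Unlike Etv2 and Tal1, it went on to higher Dox- signals on D2.5 and D3.5. Aplnr, the apelin receptor of early mesoderm, read 0.7, 124, 2154 and 1412 in Dox- and 7.2, 1.0, 1.2 and 418 in Dox+ over the 4 days, so that D1.5 came before its highest signal in either arm. A dim second probe set of Aplnr differed by 0.80 on D1.5, where the brightest gave 3.04. Flt1, a second receptor of the same growth factor, read 45.7 in Dox- and 8.0 in Dox+ cells on D1.5, and Nrp1, their co-receptor, 27.9 in Dox- and 5.0 in Dox+ cells, both below 50 in both arms. The embryonic globin gene Hbb-bh1 read 117 in Dox- and 6.9 in Dox+ cells.

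In the whole list of 40 hemangioblast, endothelial and blood precursor genes, 20 were higher in Dox- by 2-fold or more and 0 lower by as much, where over all 18193 genes with a probe set 0.846% were higher and 0.753% lower. Their median difference was 1.01 on D1.5 and -0.04 on D0.5, beside medians of 0.01 and -0.02 over all genes. Only 18 of the 40 passed the filter, and these had a median of 1.69, but a gene that passed through Dox- arrays alone had to differ on some day. This list and the others were chosen with earlier results of these data known, so their counts are a description only. The summed signal of the 40 genes was 3004 in Dox- and 859.7 in Dox+ cells on D1.5, against 807 in Dox- and 839 in Dox+ cells on D0.5. Genes of later blood and vessel cells were found on both sides of the 2-fold mark. The endothelial genes Cdh5, Tek, Esam, Erg and Rhoj were among the 20, at 1.23, 1.71, 1.72, 1.25 and 2.01, though too dim for the filter, and Eng differed by 0.95. Runx1, Gata1 and Spi1, factors of definitive blood, red cells and myeloid cells, differed by 0.59, 0.58 and 0.20, and the vessel genes Pecam1, Tie1 and Dll4 by -0.17, 0.01 and -0.19. The genes from Cdh5 to Dll4 were chosen after their values were seen. In bulk RNA, more cells of a type and more RNA per cell cannot be told apart.

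Some other genes far up in Dox- on D1.5 belonged to no list or to that of imprinted genes. Ctla2a, which encodes a cysteine protease inhibitor, had the largest difference of all, 4.14. It read 0.9, 291, 282 and 51.9 in Dox- from D0.5 to D3.5 and 0.8, 1.4, 2.6 and 0.8 in Dox+ over the same days, with 5.0 in undifferentiated cells. Its neighbour in sequence and name, Ctla2b, read 103 in Dox- and 1.3 in Dox+ cells on D1.5, and near-identical genes of this kind can share probes, so the 2 values may not be separate measurements. Igf2, an imprinted growth factor of the embryo, read 13.3, 252, 386 and 2151 in Dox- and 4.3, 10.3, 23.8 and 30.5 in Dox+ over the 4 days, with 9.0 in undifferentiated cells. Its Dox- signal went on climbing after D1.5, while a second, dim probe set differed by only 0.36 on D1.5. Peg3, an imprinted zinc finger gene, read 1123 in Dox- and 356 in Dox+ cells, and its second probe set, at 476 in Dox- and 94.8 in Dox+ cells, differed by 2.15. Amot, a regulator of cell junctions and migration, read 667 in Dox- and 149.9 in Dox+ cells, and Prickle1, of the planar cell polarity pathway, 228 in Dox- and 40.6 in Dox+ cells. Second, dim probe sets of Amot and Prickle1 differed by only 0.12 and 0.13. Amot was chosen after its values were seen. Of 21 imprinted genes, 3 were higher (Igf2, Peg3 and Ndn) and 2 lower (Phlda2 and Ascl2), with a median of 0.09. Over all genes 0.846% were higher and 0.753% lower.

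Some targets of bone morphogenetic protein (BMP) signals were higher in Dox- as well. Id3, an inhibitor of helix-loop-helix factors that BMP signals switch on, read 101.5, 238, 396 and 1065 in Dox- from D0.5 to D3.5 and 106, 42.9, 103 and 271 in Dox+ over the same days, with 119.7 in undifferentiated cells. Its difference on D1.5 (2.11) joined a higher signal in Dox- with a lower one in Dox+ than on D0.5. Id1 read 485 in Dox- and 136 in Dox+ cells on D1.5, the inhibitory Smad gene Smad6 101.5 in Dox- and 24.5 in Dox+ cells, and the ligand gene Bmp2 77.6 in Dox- and 3.1 in Dox+ cells. In the list of 20 BMP ligands and targets these and Id4 made 5 higher and 0 lower, against 0.846% of all genes higher. The list median was 0.16. Not all members were on that side: the targets Id2 and Msx2 and the ligand gene Bmp4 differed by -0.33, -0.34 and -0.27. Those 3 were chosen after their values were seen.

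Genes of the primitive streak, where mesoderm and endoderm arise, were mostly still dim on D1.5. Of 22 with a probe set, 4 were higher by 2-fold or more and 0 lower, against 0.846% of all genes higher, and the median was 0.29. The 4 were the homeobox factor gene Lhx1 (52 in Dox- and 0.5 in Dox+ cells), the growth factor gene Fgf8 (69.3 in Dox- and 10.5 in Dox+ cells), the secreted Nodal and BMP inhibitor gene Cer1 (30.9 in Dox- and 3.0 in Dox+ cells) and the T-box factor gene Eomes (118 in Dox- and 40.9 in Dox+ cells). Cer1 was too dim for the filter, and its second probe set differed by only 0.17. Mixl1 and Mesp1, factors of the streak and of the first mesoderm, read only 21 in Dox- and 9.8 in Dox+ cells and 13.8 in Dox- and 9.5 in Dox+ cells. The gene of brachyury was not analysed here. Of 13 definitive endoderm genes, 5 were higher and 0 lower, but all 5 (Sox17, Hhex, Cldn6, Cer1 and Eomes) are also on other lists. Foxa2, a defining factor of endoderm and chosen after its values were seen, read 15.2 in Dox- and 19.9 in Dox+ cells. Of 20 lateral plate and heart genes, 0 were higher and 1, Tbx3, lower, with a median of 0.12. The receptor gene Pdgfra, of that mesoderm, read 15.8 in Dox- and 17.5 in Dox+ cells. Fst, which encodes the activin inhibitor follistatin, read 283 in Dox- and 51.9 in Dox+ cells. In the signalling lists, 1 of 14 Nodal pathway genes (Cer1) was higher and 0 lower, 0 of 24 Wnt genes were at least 2-fold apart, and of 19 FGF genes 1 (Fgf8) was higher and 1 (Fgf4) lower.

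Genes of the kinase itself stayed within 2-fold, and 3 of its known target genes were higher in Dox-. Prkaca, the catalytic subunit of PKA, read 508.5 in Dox- and 544.5 in Dox+ cells, and it is not known here whether its probes detect the introduced kinase. Of 15 genes of PKA itself, its inhibitors and its anchors, 0 were at least 2-fold apart, with a median of 0.02 and values from -0.58 to 0.64. Of 27 cyclic AMP and CREB-responsive genes, 3 were higher and 0 lower in Dox-, against 0.846% of all genes higher. The list median was 0.31 on D1.5, beside 0.02 on D0.5, and 20 of the 27 had a positive difference on D1.5. The 3 all encode proteins that damp such signals: the cyclic AMP phosphodiesterases Pde4b (71.8 in Dox- and 22.6 in Dox+ cells) and Pde10a (34.2 in Dox- and 4.5 in Dox+ cells) and the G protein regulator Rgs2 (83.6 in Dox- and 22 in Dox+ cells). Their second probe sets differed by 0.84, 0.72 and 1.26. Next to these 3 came Nr4a2, Btg2, Gem, Vgf and Nr4a1, at 0.85, 0.83, 0.75, 0.72 and 0.56. The immediate early gene Fos, a textbook CREB target, read 51.6 in Dox- and 53.2 in Dox+ cells, and Sik1, Per1 and Crem differed by -0.34, -0.19 and 0.01. The 8 named beside Fos were chosen after their values were seen.

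Some epithelial genes were ahead in Dox- on D1.5. Cldn7, a tight junction claudin, read 17.6, 599, 248 and 131 in Dox- from D0.5 to D3.5 and 21.2, 197, 820.0 and 676 in Dox+ over the same days, with 13.9 in undifferentiated cells. It was dim in both arms on D0.5, brighter in both on D1.5 with Dox- ahead, and brighter in Dox+ on D2.5 and D3.5. Cldn6 read 179 in Dox- and 55.7 in Dox+ cells on D1.5, and the keratin partners Krt8 and Krt18 read 254 in Dox- and 86.5 in Dox+ cells and 575 in Dox- and 261 in Dox+ cells. Ap1m2, an adaptor subunit of epithelial cells, read 207 in Dox- and 28.4 in Dox+ cells. Of 4 zinc finger repressors of epithelial genes, Snai2 (4.9 in Dox- and 54.1 in Dox+ cells) and Zeb1 (25.6 in Dox- and 87.9 in Dox+ cells) were on the other side, and Zeb2 and Snai1 differed by 0.52 and 0.36. In the list of 26 epithelial and mesenchymal genes 4 were higher (Cldn6, Cldn7, Krt8 and Krt18) and 2 lower (Snai2 and Zeb1). Over all genes with a probe set 0.846% were higher and 0.753% lower. The list median was 0.22. The adhesion genes Cdh1 and Epcam differed by -0.11 and 0.10, and Vim by -0.15. These 3, Zeb2 and Snai1 were chosen after their values were seen. The second probe sets of Snai2 and Zeb1, both dim, differed by only -0.35 and -0.17.

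Naive pluripotency genes had more members lower in Dox- than any of the other 24 lists. Of 28 with a probe set, 12 were at least 2-fold lower and 0 higher, against 0.753% of all genes lower, and the median was -0.85 on D1.5 and -0.07 on D0.5. Over the 24 that passed the filter the median was -1.02. The summed signal of the 28 genes was 5101 in Dox- and 9691 in Dox+ cells. Klf2, a factor that holds cells in the naive state, read 185, 16.9, 25.9 and 31 in Dox- from D0.5 to D3.5 and 205, 171, 28.4 and 19 in Dox+ over the same days, with 552 in undifferentiated cells. Both arms had left the ES level by D0.5, and on D1.5 the Dox+ signal was close to that of D0.5 while the Dox- signal was under 50. On D2.5 both were dim. Fbxo15, an F-box gene specific to ES cells and the early embryo, read 651, 23.2, 58 and 20.8 in Dox- and 721, 173, 28.2 and 25.4 in Dox+ over the 4 days, with 2062 in undifferentiated cells. Its course was the same in kind: both arms were far below ES cells on D1.5, with a difference between them of -2.27.

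The other naive genes at least 2-fold lower included several core factors. Esrrb, an orphan nuclear receptor, read 13.7 in Dox- and 56.3 in Dox+ cells, its relative Nr5a2 19.7 in Dox- and 101 in Dox+ cells, and Nr0b1, a partner of both, 48.2 in Dox- and 142 in Dox+ cells. Zfp42 (Rex1), the standard naive marker, read 136 in Dox- and 323 in Dox+ cells, and Prdm14, which keeps DNA methylation low in naive cells, 0.5 in Dox- and 28.1 in Dox+ cells. Tbx3 read 10.2 in Dox- and 74.8 in Dox+ cells (a difference of -1.79, but -0.91 in its second probe set), and the dioxygenase gene Tet2, which starts the removal of DNA methylation, 44.8 in Dox- and 129.9 in Dox+ cells. Ooep, Fgf4 and Jam2 completed the 12, but 4 other probe sets of Jam2 differed by -0.30 to -0.05. Nanog (-0.27), Klf5 (-0.30) and Tfcp2l1 (-0.41) were within 2-fold, and Socs3 and Stat3, of the leukemia inhibitory factor pathway, had positive differences of 0.96 and 0.59. The last 4 of these were chosen after their values were seen.

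Genes shared by all pluripotent cells, and most of those of the formative and primed epiblast, lay within 2-fold. Of 15 general pluripotency genes, 0 were at least 2-fold apart, with a median of -0.08 and Pou5f1 at -0.08. Sox2 read 1461 in Dox- and 1906 in Dox+ cells. Of 21 formative and primed genes, 0 were higher and 1 lower, with a median of 0.21. Fgf5, a ligand that marks primed cells, read 755 in Dox- and 419.6 in Dox+ cells, and the homeobox factor gene Otx2 1325.5 in Dox- and 1116 in Dox+ cells. The exception was Dnmt3l, a cofactor of the DNA methyltransferases, which read 1122, 94.3, 53.1 and 33.4 in Dox- from D0.5 to D3.5 and 1134, 478, 138 and 41.9 in Dox+ over the same days, with 718.5 in undifferentiated cells. It was brighter on D0.5 than in ES cells in both arms, then lower on each later day in both, with Dox- the lower of the arms. Its catalytic partners Dnmt3a and Dnmt3b read 919 in Dox- and 1297 in Dox+ cells and 4473.5 in Dox- and 5051 in Dox+ cells, and Dnmt3a was chosen after its values were seen. Of 22 genes for DNA methylation and H3K9 methylation enzymes, 0 were higher and 3 lower, against 0.753% of all genes lower. The 3 were Dnmt3l, Tet2 and the demethylase gene Kdm4c (222.5 in Dox- and 507.5 in Dox+ cells). The H3K9 methyltransferase gene Ehmt2 (G9a) read 195 in Dox- and 192 in Dox+ cells.

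Germline genes, which DNA methylation silences in other tissues, were lower in Dox- in part. Of 20 with a probe set, 4 were lower and 0 higher, against 0.753% of all genes lower, and the median was -0.22. Dmrt1, a sex-determining factor of the gonad, read 175, 53.9, 16.4 and 18.4 in Dox- from D0.5 to D3.5 and 216, 337, 114 and 41.2 in Dox+ over the same days, with 207 in undifferentiated cells. Its Dox+ signal was highest on D1.5, above that of ES cells, whereas its Dox- signal was lower on each later day up to D2.5. Mael, of the piRNA pathway, was likewise brighter on D1.5 than in ES cells only in Dox+, at 54.2 in Dox- and 215.5 in Dox+ cells, against 116 in ES cells. Dazl, an RNA-binding protein of germ cells, read 34.4 in Dox- and 112 in Dox+ cells, and Slc25a31, a germ cell ADP/ATP carrier, 18.8 in Dox- and 57 in Dox+ cells. The meiotic cohesin gene Smc1b, not on that list, read 9.6 in Dox- and 96.1 in Dox+ cells. Morc1, which silences transposons in male germ cells, read 35.1 in Dox- and 216 in Dox+ cells. The summed signal of the 20 genes was 1441 in Dox- and 2249 in Dox+ cells.

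Hypoxia-inducible genes were the next group lower in Dox-. Of 34 with a probe set, 33 passed the filter, so the filter had little part in the counts. Of the 34, 8 were lower and 0 higher, against 0.753% of all genes lower. Their median was -0.52 on D1.5 and 0.05 on D0.5, and only 3 of the 34 had a positive difference on D1.5. Adm, which encodes the vessel-widening peptide adrenomedullin, had the lowest difference of all genes tested (-2.89). It read 65.4, 25.6, 9.1 and 38 in Dox- from D0.5 to D3.5 and 47, 293, 123 and 25.4 in Dox+ over the same days, with 8.8 in undifferentiated cells. A second probe set of Adm differed by -2.84. Its Dox+ signal was highest on D1.5, while the Dox- signal there was below that of D0.5. Bhlhe40, a clock-linked repressor induced by low oxygen, read 84.4, 111, 46.7 and 326 in Dox- and 94.2, 487, 550.1 and 165 in Dox+ over the 4 days, with 54.7 in undifferentiated cells. Egln3, a prolyl hydroxylase that marks hypoxia-inducible factors for destruction, read 342, 221, 268 and 506 in Dox- and 317, 816, 447 and 234 in Dox+ over the 4 days, with 44.5 in undifferentiated cells. Both were brighter in every differentiating Dox+ culture than in ES cells, and their Dox- signals were highest on D3.5.

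Ndrg1, a stress-responsive gene, read 63.6 in Dox- and 281 in Dox+ cells on D1.5, Ddit4, an inhibitor of mTOR signals, 1019.7 in Dox- and 2256 in Dox+ cells, and the endoplasmic oxidase gene Ero1a 244 in Dox- and 579 in Dox+ cells. The pyruvate dehydrogenase kinase gene Pdk1 read 1017 in Dox- and 2114 in Dox+ cells. Of the glycolytic enzymes, Pfkp, a phosphofructokinase, read 307 in Dox- and 708 in Dox+ cells. Other enzymes of glycolysis stayed within 2-fold, among them Aldoc (-0.89), Hk1 (-0.56), Hk2 (-0.56), Aldoa (-0.26), Pgk1 (-0.06), Pkm (-0.01) and Ldha (0.25), and the growth factor gene Vegfa differed by -0.34. These 8 were chosen after their values were seen.

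Markers of other cells were set beside these results. Of 20 extraembryonic endoderm genes, 4 (Sox17, Sox7, Col4a1 and Srgn) were higher and 0 lower, against 0.846% of all genes higher. The list had a median of 0.30 and a summed signal of 2295 in Dox- and 1459 in Dox+ cells. Below the 2-fold mark the factor gene Gata6 (0.9972) and the matrix genes Sparc (0.91), Lama1 (0.72) and Col4a2 (0.66) were also positive, and 14 of the 20 were in all. The visceral endoderm genes Afp, Ttr and Hnf4a read 5.6 in Dox- and 0.4 in Dox+ cells, 8.7 in Dox- and 5.4 in Dox+ cells and 2.3 in Dox- and 2.6 in Dox+ cells. Sparc, Lama1, Col4a2, Afp, Ttr and Hnf4a were chosen after their values were seen. Of 12 trophoblast genes 1 (Eomes) was higher and 1 (Ascl2, at 1.4 in Dox- and 28 in Dox+ cells) lower. Of 14 neural ectoderm genes and 13 fibroblast genes 0 were at least 2-fold apart. Their summed signals were 385 in Dox- and 381.5 in Dox+ cells for the neural list and 285 in Dox- and 359.9 in Dox+ cells for the fibroblast list. Of 3 genes of the two-cell-like state 0 passed the filter. The part of any of these cells in the differences given above was not tested. Among 20 proliferation genes 0 were at least 2-fold apart, with a median of 0.07, and among 16 genes of the p53 and stress response the cell cycle inhibitor gene Cdkn1a was higher (125 in Dox- and 45.2 in Dox+ cells) and Ddit3 lower (39.3 in Dox- and 109 in Dox+ cells).

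**Figure D2:**
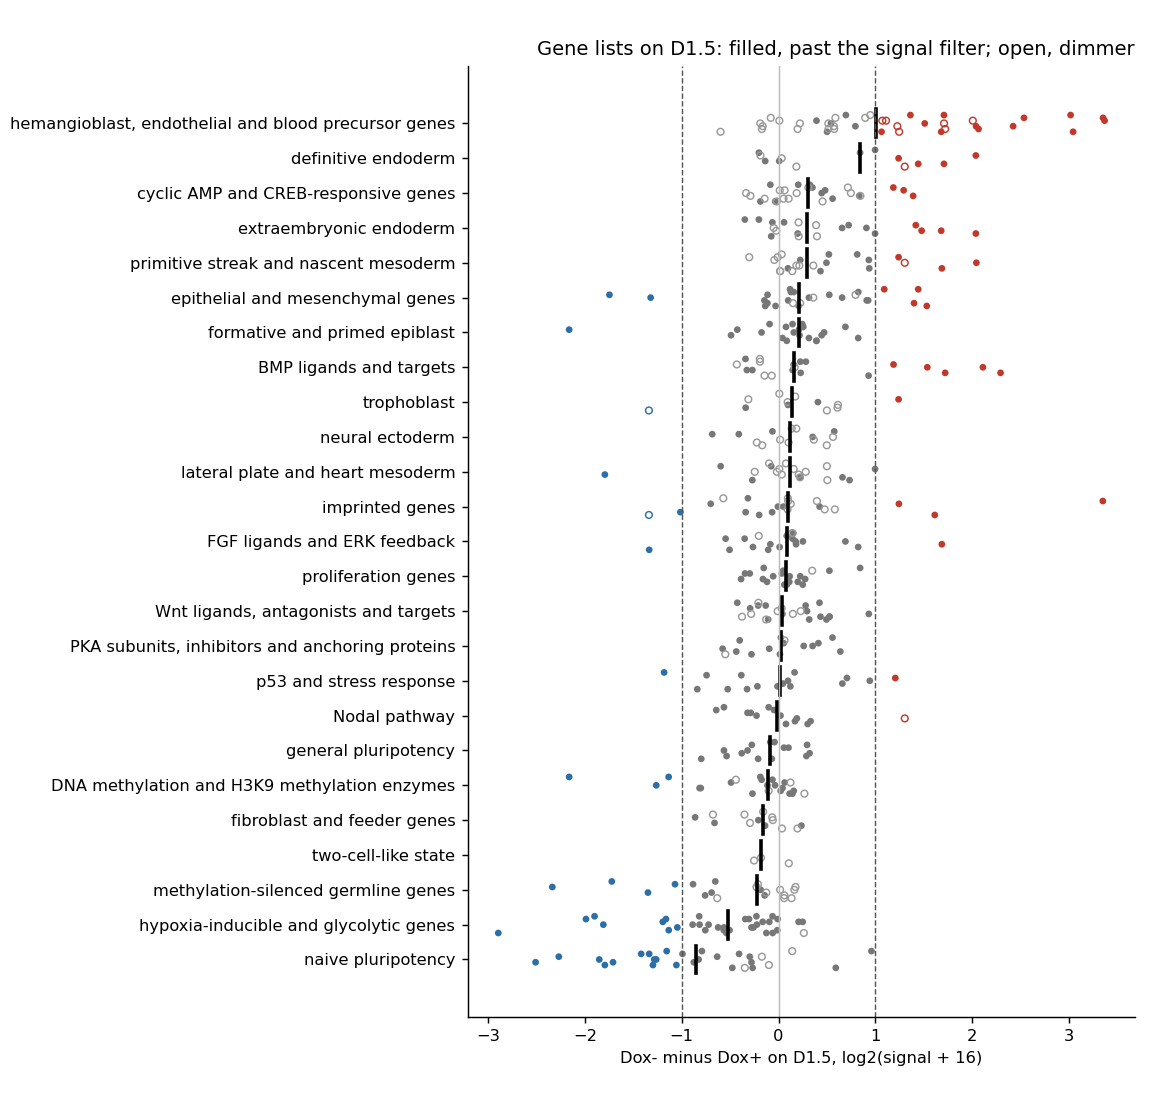
Dox- minus Dox+ difference on D1.5 (log2 scale) of every gene with a probe set in 25 lists, ordered by the list median (black bar), with genes past the signal filter filled and dimmer genes open; red and blue mark genes at least 2-fold higher and lower in Dox-. The precursor list has its median at 1.01 and the naive list at -0.85, and the hypoxia list has 8 blue points and 0 red ones.

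Most of the upward difference came from the Dox- arm. From D0.5 to D1.5, 97 of the 116 genes went up at least 2-fold in Dox- and 20 in Dox+, beside 6.12% and 4.33% of all 8716 genes. The median step of the 116 was 1.87 in Dox- and 0.18 in Dox+. The 20 that went up in both arms included Cldn6, Cldn7, Krt8, Krt18, Amot, Fst and Prickle1, with the Dox- arm ahead. For 5 genes the Dox- signal stayed within 2-fold of D0.5 while the Dox+ signal went down at least 2-fold, among them Cdkn1a and the immediate early gene Phlda1, which read 118 in Dox- and 26.1 in Dox+ cells on D1.5. Id3 went up in Dox- and down in Dox+. Txnip, a regulator of redox state and glucose uptake, went down in both, but to 148 in Dox- and 53.7 in Dox+ cells. Phlda1 and Txnip were chosen after their values were seen. Because the same D1.5 arrays chose the genes, the size of these steps is in part a product of that choice.

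The downward difference also came mostly from the Dox- arm, with a set of genes that went up in Dox+. Of the 124 genes lower in Dox-, 86 went down at least 2-fold in Dox- and 39 in Dox+, beside 4.07% and 2.36% of all genes, and the median step was -1.73 in Dox- and -0.41 in Dox+. For 39 genes the signal went down in both arms and further in Dox-, as for Fbxo15 and Zfp42. For another 20 the Dox- signal stayed within 2-fold of D0.5 and the Dox+ signal went up at least 2-fold. These 20 held 6 of the 8 hypoxia genes (Adm, Bhlhe40, Ddit4, Egln3, Ero1a and Ndrg1), the stress gene Ddit3, the Notch ligand gene Dll1 and Aqp3, a channel for water and glycerol. Dll1 read 85.4, 38.7, 313 and 29.3 in Dox- from D0.5 to D3.5 and 72.1, 202, 61.5 and 47.1 in Dox+ over the same days, with 19.4 in undifferentiated cells, so its highest signals were those of D1.5 in Dox+ and of D2.5 in Dox-. Aqp3 read 15.1 in Dox- and 120.3 in Dox+ cells on D1.5. No gene of the 124 went up at least 2-fold in Dox-.

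**Figure D3:**
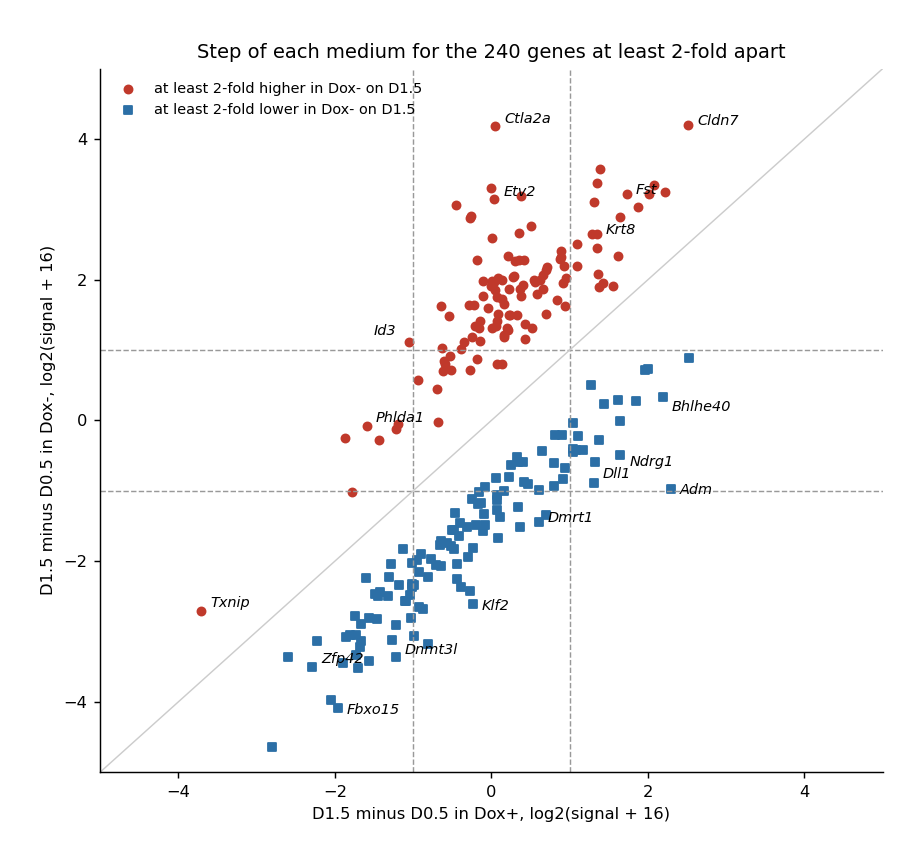
Step from D0.5 to D1.5 (log2 scale) in Dox- (vertical) against Dox+ (horizontal) for the 116 genes at least 2-fold higher (red circles) and the 124 at least 2-fold lower (blue squares) in Dox- on D1.5; dashed lines mark 2-fold steps. The red points lie mostly at a vertical step above 1 and a horizontal step between -1 and 1, and 20 blue squares, Adm and Bhlhe40 among them, lie right of the dashed line at 1.

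On the later days the median difference of both sets lay nearer 0. The genes were chosen by their D1.5 difference, so values nearer 0 on any other day are in part a product of that choice. Of the 116 higher genes, on D2.5 61 and on D3.5 44 were still at least 2-fold up in Dox-, and 10 and 23 were at least 2-fold lower, beside 3.41% and 4.13% of all genes higher and 4.45% and 4.8% lower on those days. Of the 124 lower genes, 47 and 11 were still lower on D2.5 and D3.5, and 7 and 19 were higher. On D0.5, 0 of the 116 and 1 of the 124 (Arhgef3, 1.02, higher in Dox- there) were at least 2-fold apart. Median differences of the 116 were 0.04, 1.41, 1.04 and 0.47 on D0.5 to D3.5, and those of the 124 were 0.00, -1.29, -0.68 and -0.07.

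A further count asked whether the Dox+ arm reached the D1.5 Dox- level later, taken as a Dox+ signal on D2.5 or D3.5 within 2-fold of that level or past it in the same direction. With median differences of 1.41 and -1.29 on D1.5, a small step in Dox+ is enough to meet it, so the counts are given as a description. Of the 124 lower genes, 122 met it, all but Ndrg1 and the annexin gene Anxa2, which was chosen after its values were seen. Of the 116 higher genes, 89 met it, 66 on D2.5, including all 4 epithelial genes and all 3 cyclic AMP-responsive genes. The 27 that did not meet it held 10 of the 13 precursor genes that passed the filter and were higher (Etv2, Fli1, Tal1, Gata2, Lmo2, Kdr, Hhex, Sox7, Sox18 and Hbb-bh1). The filter had a part in this: 22 of the 27, and 9 of the 10 precursor genes (all but Etv2), read under 50 on every Dox+ array, and a gene that passed through Dox- arrays alone could hardly meet the criterion. The precursor genes that did meet it were Aplnr, Flt1 and Nrp1, all 3 on D3.5 and none on D2.5. Also among the 27 were Sox17, Igf2, Id4, Ctla2a, Ctla2b, Srgn and the semaphorin receptor gene Plxnd1 (71.9 in Dox- and 5.1 in Dox+ cells on D1.5), which was chosen after its values were seen.

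**Figure D4:**
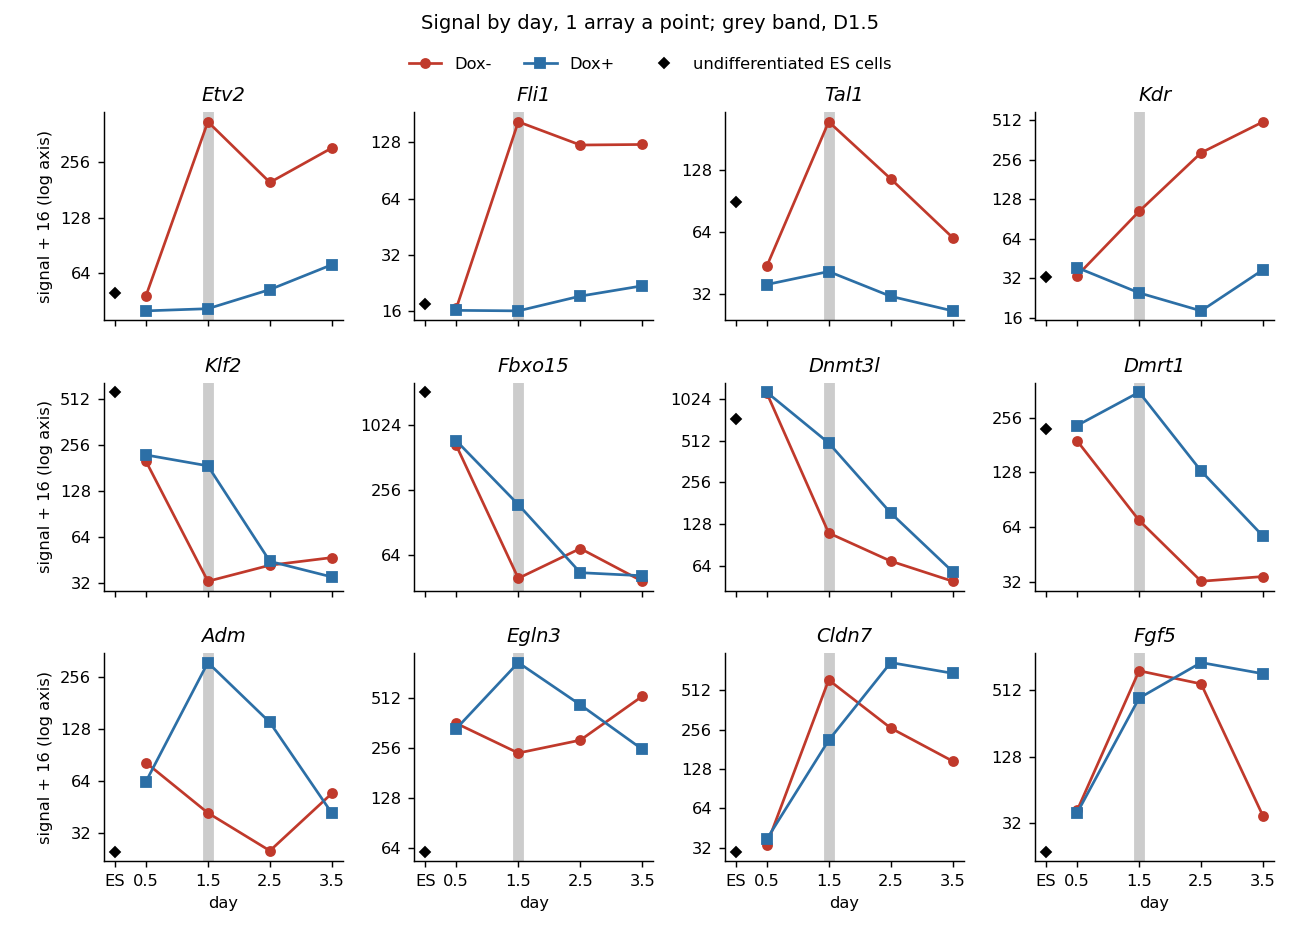
Signal + 16 (log axis) by day for 12 genes in Dox- (red circles) and Dox+ (blue squares), 1 array a point, with undifferentiated ES cells as a black diamond and D1.5 as a grey band. Etv2, Fli1 and Tal1 part on D1.5 and stay apart; Klf2 and Fbxo15 part on D1.5 and meet again by D2.5 or D3.5; Adm and Egln3 peak in Dox+ on D1.5.

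Some genes changed sides. At least 2-fold apart with the other sign on D2.5 or D3.5 were 25 of the 116 higher genes and 20 of the 124 lower ones. Of all 8716 genes, 4.45% and 4.8% were lower in Dox- on D2.5 and D3.5, and 3.41% and 4.13% higher. The share of all genes on either day was not counted. Among the genes first higher in Dox-, the claudins Cldn6 and Cldn7 were lower in Dox- on both later days, and Fst, Fgf8 and Ap1m2 on D3.5. Among those first lower, Tbx3, used in naive cells and later in heart mesoderm, read 284, 10.2, 218 and 1061 in Dox- from D0.5 to D3.5 and 280.2, 74.8, 11.3 and 58.6 in Dox+ over the same days, with 811.5 in undifferentiated cells. It was thus at its lowest in Dox- on D1.5 and above the ES level on D3.5. Snai2 and Zeb1, the repressors of epithelial genes, read 413 and 239 in Dox- and 16.2 and 25.5 in Dox+ cells on D3.5. Phlda2, an imprinted growth repressor of the placenta, read 276 in Dox- and 574 in Dox+ cells on D1.5 and 4248 in Dox- and 599 in Dox+ cells on D3.5.

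**Figure D5:**
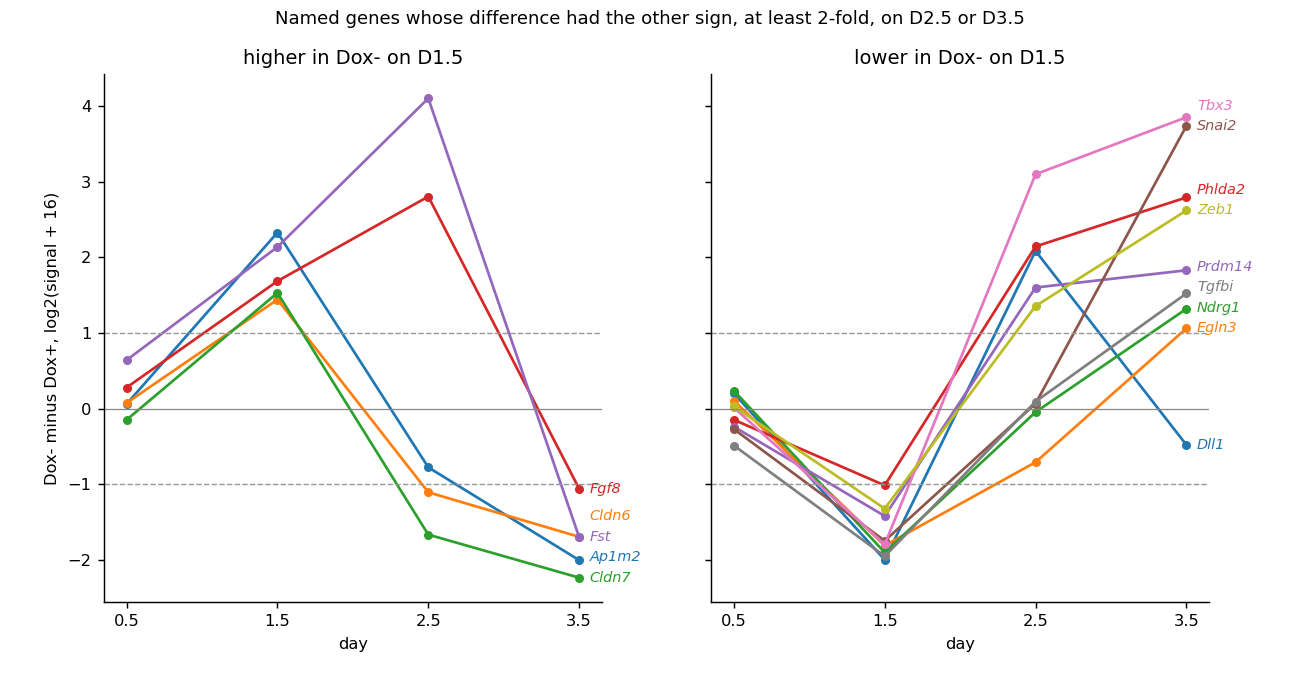
Dox- minus Dox+ difference (log2 scale) on D0.5 to D3.5 for the named genes higher (left) or lower (right) in Dox- on D1.5 that were at least 2-fold apart with the other sign on D2.5 or D3.5; dashed lines mark 2-fold. All of them lie within 2-fold on D0.5, Cldn7 ends at -2.23 and Tbx3 at 3.85.

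Other probe sets of the same genes gave a check within the arrays. Of the 116 higher genes, 30 had 46 further probe sets past the filter, of which 46 had the same sign and 32 were at least 2-fold higher. Of the 124 lower genes, 38 had 50 further ones, of which 49 had the same sign and 25 were at least 2-fold lower. The further probe sets were dimmer by choice, and their median differences were 1.13 (1.30 for the brightest probe sets of the same genes) and -0.98 (-1.31). Both kinds come from the same 2 RNA samples and say nothing about spread between cultures.

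Promoters of the 240 genes were searched for 4 short motifs on both strands, in RefSeq windows (GRCm38.p6) from 250 bases before to 50 bases after each annotated start. Of the 116 higher genes 86 have a window in the table, of the 124 lower genes 92, and of all 8716 genes 7170. The full cyclic AMP response element, TGACGTCA, lay in windows of 7 of the 86 (8.14%), 0 of the 92 and 282 of the 7170 (3.93%). The shortened TGACG, which the full element contains, lay in 41.9%, 29.3% and 38.1%. The ETS motif CCGGAAGT lay in 1.16%, 3.26% and 10.3%, and the hypoxia response core ACGTG in 26.7%, 26.1% and 31.2%. A match of letters is not a bound site, and the shares carry no test. The 7 genes with the full element were Cldn6, Cldn7, Flt1, Peg3, the polo-like kinase gene Plk2 (213.5 in Dox- and 56 in Dox+ cells), the actin-associated gene Pdlim3 (61.7 in Dox- and 15.8 in Dox+ cells) and the imprinted gene Zdbf2 (991 in Dox- and 375 in Dox+ cells), and the last 3 were chosen after their values were seen. Of the 3 higher cyclic AMP-responsive genes none is among the 7. These windows show the element in capitals with 20 bases on each side, because they are the only higher genes whose window holds it. In Cldn6 (chr17:23679305-23679352, plus strand), Cldn7 (chr11:69965363-69965410, plus), Pdlim3 (chr8:45885419-45885466, plus), Plk2 (chr13:110394962-110395009, plus) and Zdbf2 (chr1:63273190-63273237, plus) it begins 40, 38, 48, 62 and 59 bases before the start. In Flt1 (chr5:147726065-147726112, minus) and Peg3 (chr7:6730570-6730617, minus) it begins 81 and 178 bases before it.
Cldn6: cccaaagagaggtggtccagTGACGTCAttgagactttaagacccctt
Cldn7: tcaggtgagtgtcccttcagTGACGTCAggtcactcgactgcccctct
Flt1: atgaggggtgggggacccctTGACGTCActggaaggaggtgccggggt
Pdlim3: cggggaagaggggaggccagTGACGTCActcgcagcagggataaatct
Peg3: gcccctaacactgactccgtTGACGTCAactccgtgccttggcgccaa
Plk2: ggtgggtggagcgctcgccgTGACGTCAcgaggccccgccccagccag
Zdbf2: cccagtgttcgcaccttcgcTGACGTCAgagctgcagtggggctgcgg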

How the data were processed

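Total RNA, biotin-labelled, was measured on 9 arrays, 1 per group: undifferentiated ES cells and Dox- and Dox+ cells of D0.5, D1.5, D2.5 and D3.5. Groups come from the labels. The data are the intensity values, linear and 1 per probe set, that the authors deposited. GCOS, the array software of Affymetrix, is named in the submitters' processing notes; its version and background correction are not given here. Per the labels, scaling was to an average of 100. The deposited intensity has a mean of 100 on every array without the top and bottom 2% of probe sets.

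Of 45101 probe sets, 64 are controls and were left out, 34945 have 1 symbol, 932 several and 9224 are unnamed here. Symbols of 34741 were matched through gene IDs in the RefSeq gene table (GRCm38.p6). Each of 18193 genes was given by its brightest single-symbol probe set over all 9 arrays, which 9010 genes had to choose among several. Values are log2(signal + 16), without further normalization. The 8716 genes that reached 50 on 2 or more arrays were compared; those called are at least 2-fold apart. With 1 array a side there is no p-value, and precision is limited by the number of arrays. Noise was taken as the 99th percentile of the size of D0.5 differences in 5 bins of mean signal. Tools were pandas 2.3.3 and numpy 2.4.6.

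The genes named are Etv2, Fli1, Klf2 and Adm, the 15 furthest up and the 15 furthest down, list members at least 2-fold apart, a set always given (Prkaca, Pou5f1, Nanog, Fgf5 and others) and genes at least 2-fold apart on D0.5. The members, the 25 gene lists and this rule were chosen with earlier results of these data known. Alternatives were other pseudocounts, filters and normalizations, the mean of probe sets and the next brightest probe set. Promoter windows come from RefSeq (GRCm38.p6).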

Additional observations from a re-analysis of the deposited data

Results flagged for a closer look

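These genes lay at least 2-fold apart on D1.5 and at least 2-fold apart with the other sign on a later day, so the 2 days differ in direction. Each day is 1 pair of arrays, and the difference between days was not tested.

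Epithelial genes among them were higher in Dox- on D1.5 and lower later. The claudin gene Cldn7 gave 1.53, -1.66 and -2.23 on D1.5, D2.5 and D3.5. Its relative Cldn6 gave 1.44, -1.10 and -1.69 over these days. The adaptor gene Ap1m2 gave 2.33 on D1.5 and -2.0011 on D3.5. Secreted factors did the same: Fst gave 2.14 and -1.70, and Fgf8 1.69 and -1.06.

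Genes first lower in Dox- and later higher included regulators of pluripotency and mesoderm. Tbx3 gave -1.79, 3.10 and 3.85 over the same days, and Prdm14 -1.42, 1.60 and 1.83. The epithelial repressor Zeb1 gave -1.32, 1.36 and 2.62, and Snai2 -1.75 on D1.5 and 3.74 on D3.5. The imprinted gene Phlda2 gave -1.01, 2.14 and 2.79. The Notch ligand gene Dll1 gave -1.9967 on D1.5 and 2.09 on D2.5. On D3.5 the hypoxia-inducible genes Egln3 and Ndrg1 gave 1.06 and 1.32, after -1.81 and -1.90 on D1.5, and the matrix gene Tgfbi 1.52, after -1.95.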

How the results depend on the processing

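The count of genes at least 2-fold higher in Dox- on D1.5 (116) was 206 with a pseudocount of 1, 41 with 64, 68 with the mean of all probe sets of a gene (7038 genes passing the filter) and 31 with the next brightest probe set (3345 genes). The count of lower genes (124) was 219, 41, 79 and 38 under these settings. The median of the precursor genes that passed the filter (1.69) was 2.61 and 0.98 with pseudocounts of 1 and 64, 1.01 with no filter (40 genes), 2.07 with a filter of 100 (11 genes), 0.70 with a signal of 50 asked of at least 1 Dox- and 1 Dox+ array (7 genes), 1.96 with the mean of probe sets (14 genes) and 0.80 with the next brightest (5 genes). That of the naive genes (-1.02) was -0.59 with a pseudocount of 64 and -0.10 with the next brightest probe set (11 genes). The cause was not tested beyond the fewer genes that a setting leaves. Other pseudocounts and filters cannot change the sign of a difference, so they give no check of it. Equal medians move all genes alike and little, as the D1.5 medians were 7.64 in Dox- and 7.67 in Dox+ cells. Of 79 named genes at least 2-fold apart on D1.5, all 79 kept their sign under quantile normalization, equal medians and the mean of probe sets. Little of this checks the sign, since equal medians hardly move a gene. The mean contains the brightest probe set, and only 41 of the 79 genes have another. With the next brightest probe set all 41 kept their sign, and 24 of these were at least 2-fold apart there. With a pseudocount of 64, 49 of the 79 were. No paired analysis was possible because each group is 1 array. For the same reason no array could be left out. Dim signals limit the upward folds, since 78 of the 116 higher genes read under 50 on the D1.5 Dox+ array.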

Other observations

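Several of the genes furthest down in Dox- on D1.5 are on no list. Mymx, which encodes a membrane peptide of muscle cell fusion, read 1152, 16.5, 4.6 and 6.0 in Dox- from D0.5 to D3.5 and 1409.5, 137, 25.6 and 12.8 in Dox+ over the same days, with 1374 in undifferentiated cells. It was bright in ES cells and on D0.5 and lower on D1.5 in both arms, further in Dox-. Upp1, a uridine phosphorylase, read 1905, 355, 1164 and 658.5 in Dox- and 1939, 1479.6, 596 and 954 in Dox+ over the 4 days, with 1834 in undifferentiated cells. Its Dox- signal thus dipped on D1.5 and was higher again on D2.5, and its Dox+ signal was lowest on D2.5. Bnc2, a zinc finger gene, read 181 in Dox- and 730.2 in Dox+ cells on D1.5, where its second probe set differed by -1.35. Aass, an enzyme of lysine breakdown, read 55.6 in Dox- and 254 in Dox+ cells, and the matrix gene Tgfbi 20.2 in Dox- and 124 in Dox+ cells.

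The co-receptor gene Nrp1 read 9.1, 27.9, 164 and 1052 in Dox- from D0.5 to D3.5 and 4.0, 5.0, 5.7 and 17.3 in Dox+ over the same days, and Plxnd1, which pairs with such receptors, 5.5, 71.9, 94.3 and 80.3 in Dox- and 1.4, 5.1, 12.3 and 18.7 in Dox+. Plxnd1 was within 2-fold of its later Dox- signals on D1.5, whereas Nrp1 was brighter on each later day. Epas1, a hypoxia-inducible factor of endothelium, differed by -1.39 on D1.5 and 3.15 on D3.5. Plxnd1 and Epas1 were chosen after their values were seen.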
